A study of Homo sapiens with 6 samples.

Results

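Ribosome footprints from amino acid starved A549 cells were compared between a line with METTL16 knocked down and a line with a control shRNA. A gene entered the comparison when its footprint reads averaged at least 30 over the 3 footprint libraries of the series, which held for 3431 of the 60648 genes in the count table. These were 3345 nuclear protein-coding genes, 12 mitochondrially encoded mRNAs and 74 genes of other types, chiefly small RNAs. A549 is an established line from a human non-small cell lung cancer, and the study asked about METTL16 when nutrients are withdrawn. The control shRNA line was starved of amino acids for 2 h. The METTL16 shRNA line was sampled starved for 2 h and, separately, after 2 h in complete medium. Both lines carried a stable shRNA, both were grown in DMEM with serum, and every culture received cycloheximide for 5 min before harvest. Each condition gave 1 footprint library, from RNase I protected RNA cut from a gel at about 30 bases, and 1 input library of fragmented total RNA. The control line is present only starved. Below, control and knockdown mean the starved libraries, fed knockdown means the METTL16 shRNA line in complete medium, and a run of 3 values follows that order. The labels give neither the number of shRNAs nor the number of clones, so METTL16 loss and any other difference between the lines cannot be told apart.

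Ribosome profiling sequences the stretch of mRNA that a translating ribosome shields from nuclease, so the footprints on a gene follow both how much of its mRNA there is and how many ribosomes sit on it. METTL16 is an RNA methyltransferase that places N6-methyladenosine on the U6 small nuclear RNA and on hairpins of the MAT2A mRNA, which encodes the enzyme that makes S-adenosylmethionine. When amino acids run short, cells commonly restrain mTORC1 and raise translation of ATF4, and membranes poor in sterol release SREBP transcription factors that switch on the genes of cholesterol and fatty acid synthesis.

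The targeted gene was checked first. METTL16 had 60 footprint reads in the control, 3 in the knockdown and 7 in the fed knockdown, and 44, 9 and 19 input reads in the same order. Both footprint libraries of the METTL16 shRNA line were low and the control was high, although METTL16 lay below the count minimum and is no member. Its footprint log2 ratio between the starved libraries was -3.16, with a 95% interval of -5.69 to -1.75. MAT2A, its best known mRNA target, had 545 scaled CPM (reads brought to a common library total) in the control, 539 in the knockdown and 609 in the fed knockdown. Its footprint log2 ratio was -0.01 (-0.31 to 0.28), while its input ratio was -0.68 (-1.10 to -0.28).

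The starved footprint libraries held 781831 reads in the control and 518955 in the knockdown, and the fed knockdown held 711754. Levels are scaled CPM, in which the nuclear protein-coding reads of the measured genes in a library, after TMM scaling, are the total. Ratios are log2 of knockdown over control, both starved, with an exact binomial 95% interval. With 1 library per side the interval covers counting error alone, and PCR copies without molecular identifiers can make it too narrow. A gene is called when its fold is 2 or more in either direction and its interval leaves out 0. A count of 3 reads, the level below which no fold is given, is 5.62 CPM in the control and 10.86 in the knockdown. Of 6 epithelial markers of A549, keratins and CDH1 among them, 4 reached the count minimum. All 6 summed to 2675 reads in the control and 1700 in the knockdown. KRT19, with 13 and 5 reads, and EPCAM, with 15 and 5, were low in both. Of 24 alveolar and airway markers 13 had no read in either starved library, including the surfactant genes SFTPB and SFTPC, and 13 of 14 leukocyte and erythroid markers were also without reads. The fibroblast markers COL3A1, DCN, FAP, PDGFRB and POSTN had none, and all 9 fibroblast markers summed to 38 reads in the control and 20 in the knockdown.

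Of the 3431 genes 139 were called higher in the knockdown (4.05%) and 99 lower (2.89%), or 6.94% in all. Among nuclear protein-coding genes 100 were higher (2.99%) and 97 lower (2.9%), so the directions were nearly even, and both together made 5.89%. The same 5.89% passed on fold alone, whatever the interval. The other 86 genes gave 39 higher calls (45.3%) and 2 lower (2.33%), or 47.7%. An interval excluding 0, whatever the fold, held for 29.1% of nuclear protein-coding genes, above 0 for 15.8% and below 0 for 13.3%. The median ratio of all nuclear protein-coding genes was 0.01. The direction of the calls rests on the scale. Scaling by total counts lowers every log2 ratio by 0.36 and gives 57 higher and 323 lower, so that 15.0% of calls are higher in place of 58.4%. Scaling by the plain sum of nuclear protein-coding counts gives 119 higher and 131 lower, or 47.6% higher. With total counts 26 of the 100 protein-coding genes called higher stay at least 2-fold, as do all 97 called lower.

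**Figure D1:**
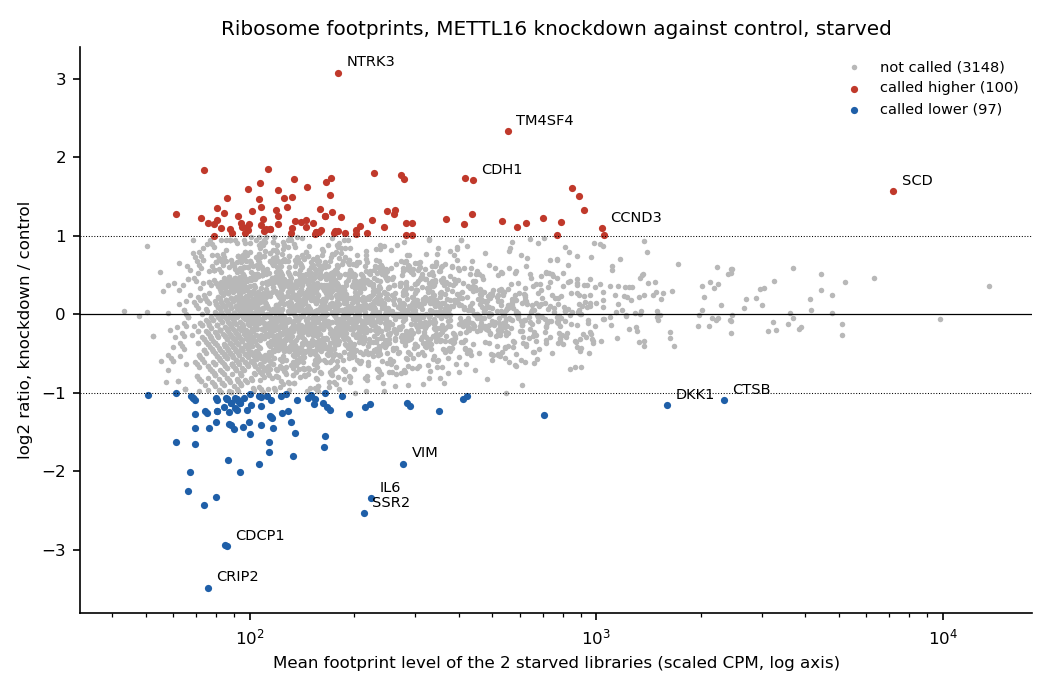
Footprint log2 ratio of knockdown over control for 3345 nuclear protein-coding genes against the mean level of the starved libraries in scaled CPM on a log axis, with called genes coloured. The 100 genes called higher and 97 called lower spread farther from 0 at the low end of the axis.

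Calls differed with depth. Of the 841 nuclear protein-coding genes with the fewest reads (30 to 41 on average) 30 were called higher and 45 lower, with a median interval width of 1.52 log2 units. Of the 832 with the most (114.67 to 5491.67) 21 were higher and 8 lower, with a width of 0.62. Higher calls thus outnumbered lower ones among the deep genes, and the reverse held among the shallow ones. The minimum and this ranking both use unscaled reads, and the control library was the deepest. Shallow genes high in the control therefore pass more readily, so this tally is not independent of how the genes were chosen. At the minimum itself, 20 genes had 90 summed reads and ratios from -1.62 for DELE1, which relays mitochondrial stress, to 0.79 for UROD, a haem synthesis enzyme. The 29 genes with 1 read fewer ran from -1.72 for PORCN, which attaches a lipid to WNT proteins, to 1.57 for KDELR3, a receptor that returns proteins to the endoplasmic reticulum.

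The lists for cholesterol synthesis (15 genes measured) and for fatty acid synthesis and sterol sensing (19) held 10 genes called higher and none called lower, where 2.99% of all nuclear protein-coding genes were called higher and 2.9% lower. The RefSeq promoter table matched 6 of the 10, and all 6 promoters are shown, since these genes were called in one direction. The letters are the 250 bases before the RefSeq transcription start (GRCh38.p14), read in the direction of the gene, with each CCAAT box on either strand (CCAAT or ATTGG) in capitals. The box is bound by NF-Y, which is known to act beside SREBP. MSMO1 is at chr4:165327419-165327668 on the plus strand, HMGCS1 at chr5:43313413-43313662 on the minus strand, INSIG1 at chr7:155297628-155297877 on the plus strand, SCD at chr10:100346983-100347232 on the plus strand, LPCAT3 at chr12:7018477-7018726 on the minus strand and SREBF1 at chr17:17836987-17837236 on the minus strand.
MSMO1: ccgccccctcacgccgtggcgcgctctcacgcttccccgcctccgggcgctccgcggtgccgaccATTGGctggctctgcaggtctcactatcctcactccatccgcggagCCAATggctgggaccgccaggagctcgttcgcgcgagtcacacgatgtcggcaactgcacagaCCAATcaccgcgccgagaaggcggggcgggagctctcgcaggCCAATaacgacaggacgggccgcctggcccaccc
HMGCS1: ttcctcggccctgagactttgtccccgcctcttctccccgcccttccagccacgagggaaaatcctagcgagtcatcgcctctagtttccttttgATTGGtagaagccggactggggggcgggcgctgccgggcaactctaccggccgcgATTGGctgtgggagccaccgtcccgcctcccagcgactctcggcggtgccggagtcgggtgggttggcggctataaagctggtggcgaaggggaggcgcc
INSIG1: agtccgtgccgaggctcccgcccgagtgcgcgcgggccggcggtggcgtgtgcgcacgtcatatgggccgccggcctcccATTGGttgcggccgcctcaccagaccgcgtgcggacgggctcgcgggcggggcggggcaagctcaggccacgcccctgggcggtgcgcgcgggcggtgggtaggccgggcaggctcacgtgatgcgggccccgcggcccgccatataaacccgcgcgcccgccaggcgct
SCD: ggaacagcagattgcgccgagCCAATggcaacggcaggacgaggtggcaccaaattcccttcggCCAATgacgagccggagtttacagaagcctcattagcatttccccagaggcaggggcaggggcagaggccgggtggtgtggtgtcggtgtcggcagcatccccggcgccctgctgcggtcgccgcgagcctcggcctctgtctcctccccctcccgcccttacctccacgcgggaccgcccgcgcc
LPCAT3: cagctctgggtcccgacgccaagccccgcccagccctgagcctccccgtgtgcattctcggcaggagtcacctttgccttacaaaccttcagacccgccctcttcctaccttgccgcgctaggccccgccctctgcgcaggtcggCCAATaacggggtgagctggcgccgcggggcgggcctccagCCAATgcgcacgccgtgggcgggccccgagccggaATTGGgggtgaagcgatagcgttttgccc
SREBF1: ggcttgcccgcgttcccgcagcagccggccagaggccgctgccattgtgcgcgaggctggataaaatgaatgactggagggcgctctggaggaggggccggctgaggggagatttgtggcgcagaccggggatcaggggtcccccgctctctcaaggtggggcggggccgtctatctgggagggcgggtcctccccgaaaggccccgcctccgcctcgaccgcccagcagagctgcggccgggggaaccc
MSMO1 held 4 matches, LPCAT3 3, HMGCS1 and SCD 2 each, INSIG1 1 and SREBF1 none. The motif was present in 33% of 27305 RefSeq promoters of this length and in 38% of the 2779 measured nuclear protein-coding genes with one. It was in 8 of the 10 cholesterol synthesis genes that matched a promoter, 8 of the 16 fatty acid and sterol sensing genes, 37 of 78 genes called higher (47.4%) and 32 of 79 called lower (40.5%). The sterol regulatory element spelled TCACNCCAC, on either strand, was in 0.875% of all promoters and 0.828% of those of measured nuclear protein-coding genes. It was in 1 of the 16 fatty acid and sterol sensing promoters (6.25%), none of the 10 for cholesterol synthesis, none of the 78 called higher and none of the 79 called lower. These motifs were chosen after the values were seen, looser and stricter spellings of the second were also looked at, and a match describes letters, not binding.

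All 15 measured cholesterol synthesis genes had a ratio above 0, with a median of 0.47 against 0.01 for all nuclear protein-coding genes, and the median stayed above 0 under every scaling tried. Of these, 4 were called higher and none lower. Total-count scaling lowers every ratio by 0.36 and takes all 4 below 2-fold, with MSMO1, the highest, at 0.86. HMGCS1, an early synthase of the pathway, measured 372 CPM in the control, 807 in the knockdown and 796 in the fed knockdown (log2 ratio 1.12, 0.83 to 1.40). SQLE, the epoxidase that commits squalene to sterols, measured 258, 572 and 627 CPM (1.15, 0.81 to 1.49). MSMO1, a demethylating oxidase late in the pathway, measured 221, 514 and 531 CPM (1.22, 0.86 to 1.58). In each of these 3 the starved and fed knockdown libraries lay near each other and above the control. At the other end FDPS, which makes farnesyl diphosphate, had a ratio of 0.03 (-0.56 to 0.59) and SC5D, a late desaturase, 0.16 (-0.64 to 0.90). Input RNA was higher too: the 13 genes of the list at the minimum there had a median of 0.57, with 4 called higher and none lower. MSMO1 stood at 1.48 in input.

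Of 19 measured genes for fatty acid synthesis and sterol sensing 18 had a ratio above 0, with a median of 0.67 that also stayed above 0 under every scaling. Of these, 6 were called higher and none lower. SCD, the desaturase that makes oleate, rested on the most reads: 1934, 2973 and 5157, or 3620, 10760 and 13825 CPM, in the control, knockdown and fed knockdown. Its ratio was 1.57 (1.49 to 1.66), with 1.38 in input RNA. SREBF1, which encodes the SREBP-1 factor itself, measured 462, 1321 and 1638 CPM and a ratio of 1.51 (1.28 to 1.75). Its input ratio was 0.68, so footprints exceeded input by 0.83 (0.50 to 1.16). INSIG1, which holds SREBP precursors in the endoplasmic reticulum, differed in pattern, with 324 CPM in the control, 742 in the knockdown and 247 in the fed knockdown (1.20, 0.90 to 1.5). LPCAT3, a phospholipid remodelling enzyme, measured 114, 235 and 166 CPM (1.04, 0.52 to 1.57). Under total-count scaling INSIG1 and LPCAT3 fall below 2-fold, while SCD and SREBF1 do not. The lowest member was ELOVL5, a fatty acid elongase, at -0.09 (-0.44 to 0.24), and SREBF2, the sterol-responsive sister of SREBF1, was next at 0.18 (-0.33 to 0.67). In input RNA the 21 genes of this list at the minimum had a median of 0.43, with 2 called higher and none lower.

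Among all nuclear protein-coding genes, ranked by the interval end nearest 0, NTRK3 came first on the higher side. This neurotrophin receptor kinase had 20, 89 and 112 reads, or 37.4, 322 and 300.2 CPM, in the control, knockdown and fed knockdown. Both knockdown libraries were far above the control, with a ratio of 3.08 (2.39 to 3.88) and 2.14 in input RNA. TM4SF4, a tetraspanin-like membrane protein, measured 183, 927 and 737 CPM (2.33, 2.00 to 2.69), and EPHX1, the microsomal epoxide hydrolase, 417, 1278 and 1847 CPM (1.61, 1.37 to 1.86). CDH1, the epithelial cadherin, measured 206, 673 and 772 CPM (1.71, 1.36 to 2.06). In these genes the control was again the lowest of the 3 libraries. CPLX2, a regulator of vesicle fusion, had a ratio of 1.74 (1.38 to 2.10), and PDK4, a kinase that restrains pyruvate entry into mitochondria, 1.72 (1.28 to 2.18). KIRREL1, an adhesion protein, measured 101, 355 and 182 CPM (1.81, 1.32 to 2.32) and LBH, a transcription cofactor, 48.7, 177 and 77.7 CPM (1.85, 1.15 to 2.61). For these the knockdown stood above the fed one. Beside SCD and SREBF1 above, others of the first 15 were ADM (1.74), a vasodilator peptide, PDE3A (1.73), a phosphodiesterase, SERINC2 (1.68) and ANXA4 (1.33), an annexin.

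On the lower side the first was CRIP2, a LIM-domain protein, with 75 reads in the control, 3 in the knockdown and 13 in the fed knockdown (-3.48, -6.00 to -2.09). With 3 reads on a side its size is loosely known. It passed the count minimum chiefly through its control reads, as did others of the leading lower genes. CDCP1, a transmembrane substrate of Src kinases, measured 153, 18.1 and 42.9 CPM (-2.96, -4.74 to -1.80), and OLFML3, a secreted matrix protein, 152, 18.1 and 69.7 CPM (-2.94, -4.73 to -1.78). SSR2, part of the TRAP complex beside the translocon, measured 365, 61.5 and 83.1 CPM (-2.53, -3.38 to -1.85). For all of these the control was the highest library. IL6, an inflammatory cytokine, had 200, 20 and 4 reads, or 374, 72.4 and 10.7 CPM (-2.34, -3.11 to -1.71). Its input ratio was -0.53 (-1.28 to 0.16), so its footprint ratio was lower by 1.81 (-2.75 to -0.87 for the difference). VIM, the mesenchymal intermediate filament, measured 438, 116 and 316 CPM (-1.90, -2.50 to -1.38), and NID2, a basement membrane protein, 208, 57.9 and 42.9 CPM (-1.81, -2.70 to -1.08). AKAP1, which anchors protein kinase A to mitochondria, differed from the rest: 110, 21.7 and 113 CPM, so that the fed knockdown stood at the level of the control (-2.24, -3.85 to -1.14). HJURP, the chaperone of the centromeric histone, likewise had 176, 50.7 and 166 CPM (-1.75, -2.72 to -0.98). The remaining genes were RAI14 (-2.43), ROBO1 (-2.32), a guidance receptor, FRMD6 (-2.01), SLC16A6 (-1.90), F2R (-1.69) and F2RL1 (-1.28). Most of these genes were lower in input RNA too, some on few reads. Input ratios were -3.31 for OLFML3, -3.11 for CRIP2, -2.85 for NID2, -2.78 for SLC16A6, -2.26 for SSR2, -2.07 for VIM and -1.61 for CDCP1. Input intervals lay below 0 for these and for ROBO1, FRMD6, HJURP and F2RL1. They held 0 for RAI14, AKAP1, F2R and IL6.

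F2R and F2RL1 encode the protease-activated receptors PAR1 and PAR2 and lie side by side on chromosome 5, at 76716126 to 76735770 and 76819030 to 76835315 in RefSeq GRCh38.p14. F2R had 134 footprint reads in the control, 21 in the knockdown and 38 in the fed knockdown, and F2RL1 had 534, 113 and 141. Both were high in the control alone. In input RNA F2RL1 was also lower (-1.59, -2.12 to -1.10), while the input interval of F2R held 0 (-0.53, -1.28 to 0.16). This pairing was picked out after the values were seen. Over 23 chromosomes with at least 20 measured genes the medians ran from -0.15 on chromosome 21, with 22 genes, to 0.09 on chromosome 9, with 147. The median gene-model length was 5216.5 bases for genes called higher, 5954 for those called lower and 5166 for all.

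**Figure D2:**
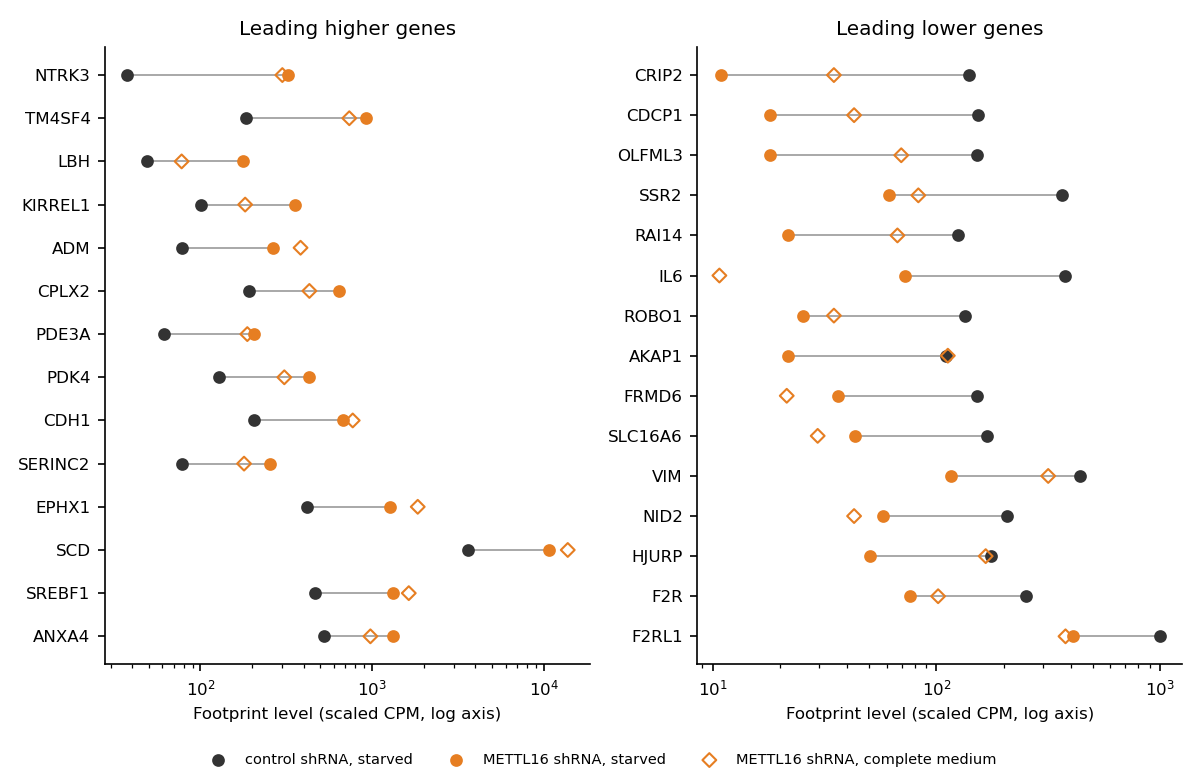
Footprint level in scaled CPM, on a log axis, of leading higher and lower nuclear protein-coding genes, with filled points for the control and knockdown and open diamonds for the fed knockdown. NTRK3 rises from 37.4 to 322 CPM between the starved libraries and CRIP2 drops from 140 to 10.9, and for AKAP1 the diamond lies on the control point.

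The secretory pathway held calls in both directions. Of 21 measured genes for folding in the endoplasmic reticulum and the unfolded protein response 4 were higher and 1 lower, against 2.99% higher and 2.9% lower of all nuclear protein-coding genes, with a median of 0.34 that turned to just below 0 under total-count scaling. SYVN1, the ubiquitin ligase of degradation from that compartment, measured 142, 355 and 383 CPM (1.32, 0.87 to 1.77), whereas its input ratio was -0.30 (-1.20 to 0.54). XBP1, the transcription factor activated by splicing in this response, measured 93.6, 209.9 and 223 CPM (1.16, 0.59 to 1.74), and its input ratio was 1.10. PPP1R15A, which recruits the eIF2alpha phosphatase, had 31, 40 and 34 reads (1.31, 0.61 to 2.04), and HERPUD1, a partner of SYVN1, 55, 59 and 55 reads (1.05, 0.50 to 1.61). SDF2L1, a chaperone cofactor, was the one lower, at 116, 43.4 and 91.1 CPM (-1.37, -2.45 to -0.51). Of 29 targeting and translocon genes 24 had a ratio above 0, with a median of 0.21 that also fell below 0 under total-count scaling. SEC61B, a channel subunit, was called higher (1.10, 0.49 to 1.72), and SSR2 and SPCS3, a signal peptidase subunit (-1.54, -2.28 to -0.92), were called lower.

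Genes of the amino acid response gave 4 higher calls and none lower among 22 measured (2.99% and 2.9% over all nuclear protein-coding genes), with a median of 0.27 that turned negative under total-count scaling. DDIT4, an inhibitor of mTORC1, measured 182, 405 and 306 CPM (1.16, 0.75 to 1.57). VLDLR, a lipoprotein receptor (1.15, 0.44 to 1.87), PSPH, the last enzyme of serine synthesis (1.10, 0.31 to 1.89), and HERPUD1, which is in both lists, were the others. ATF4 itself had 34, 33 and 28 footprint reads (0.91, 0.17 to 1.64) beside an input ratio of -0.20 (-0.63 to 0.23), and was not called. PSAT1, which acts just before PSPH in serine synthesis, was lowest at -0.91 (-1.40 to -0.46), so 2 enzymes of that short pathway lay on opposite sides. The cytosolic aminoacyl-tRNA synthetases had 20 measured members, none higher and 1 lower, CARS1 (-1.12, -2.04 to -0.36). The amino acid transporters had 9, with no call and ratios from -0.45 for SLC38A1 to 0.65 for SLC38A9.

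Ribosomal protein mRNAs, whose translation mTORC1 controls through their terminal oligopyrimidine start, were centred on 0. The 40 large subunit genes had a median of -0.01 and the 27 small subunit genes -0.04, with no call, from RPL10A (-0.93, -1.55 to -0.37) to RPL9 (0.99, 0.31 to 1.67). The 19 elongation factors and other such mRNAs held 2 lower calls, VIM and PABPC1, where 2.9% of all nuclear protein-coding genes were lower. PABPC1, the cytoplasmic poly(A)-binding protein, had 37 footprint reads in the control, 9 in the knockdown and 213 in the fed knockdown (-1.03, -2.32 to -0.01), against 700, 492 and 704 input reads. Footprints on it were thus few in both starved libraries and many in the fed one. Among 22 initiation factors EIF5, the GTPase activator of the scanning complex, was the one called, at 191, 72.4 and 164 CPM (-1.37, -2.17 to -0.70). Calls in either direction made 5.89% of all nuclear protein-coding genes, so 1 of 22 is near that share. The 28 proteasome subunits had a median of -0.15 and no call.

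The death receptors named in the study's title gave no call among the 8 measured genes of their list. Of all nuclear protein-coding genes 5.89% were called in either direction, so none among 8 says little about the list. TNFRSF10B, the TRAIL receptor DR5, came nearest to a call (-0.98, -1.5 to -0.51). It measured 324 CPM in the control, 163 in the knockdown and 292 in the fed knockdown. Its input ratio was -0.21 (-0.66 to 0.24). TNFRSF10A, the related receptor DR4, had a ratio of -0.22 (-0.92 to 0.42), TNFRSF1A, a TNF receptor, 0.32 (0.03 to 0.61), and TNFRSF21, DR6, -0.08 (-0.70 to 0.50). CFLAR, the caspase-8 inhibitor FLIP, had 59, 21 and 45 footprint reads (-0.52, -1.33 to 0.20) against 25, 47 and 50 input reads (1.21, 0.50 to 1.99). FAS, the receptor for FAS ligand, lay below the count minimum with 26, 16 and 11 reads.

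The matrix and mesenchymal list gave 4 lower calls and none higher among 27 measured genes. CDH2, a cadherin called higher (below), was not in this list. Of all nuclear protein-coding genes 2.9% were called lower and 2.99% higher. The list had a median of -0.20 that stood at 0.04 with a minimum of 100 reads. OLFML3, VIM and NID2 were among the calls, and intervals lay above 0 for 8 members and below 0 for 11. Among 14 NF-kB targets IL6 and CD70, a TNF family ligand, were called lower and none higher, beside 2.9% and 2.99% of all nuclear protein-coding genes. The list as a whole was not lower: its median was 0.08, with intervals above 0 for 6 members and below 0 for 3. CD70 measured 391, 177 and 121 CPM (-1.13, -1.62 to -0.69) and an input ratio of -2.46. Of 27 measured growth factor receptors and ligands, IGFBP7 (1.49, 0.85 to 2.16) was higher with NTRK3. TGFBR1, a TGF-beta receptor kinase, was lower at 200.3, 68.8 and 59.0 CPM (-1.51, -2.33 to -0.83). CDH2, the neural cadherin, was higher (1.04, 0.57 to 1.51) beside CDH1, and its input ratio was 0.09 (-0.56 to 0.72). Among 21 immediate early genes, whose median was 0.44, ZFP36, which destabilises AU-rich mRNAs, was the one called. It measured 99.2 CPM in the control, 246 in the knockdown and 24.1 in the fed knockdown (1.31, 0.77 to 1.86), so that it was low where the cells were fed.

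Genes for DNA replication had a median of -0.24 over 26 measured, with HELLS, a chromatin remodeller (-1.17, -2.03 to -0.45), and RFC4, a clamp loader subunit (-1.10, -2.02 to -0.33), called lower, beside 2.9% of all nuclear protein-coding genes. The 38 replication-dependent histone genes had a median of -0.20 and 1 lower call, H2BC18 (-1.01, -1.65 to -0.44). Their near-identical copies share reads, so single histone values are uncertain. The 27 measured cell cycle genes gave 1 higher and 1 lower call, near the shares of 2.99% and 2.9% over all nuclear protein-coding genes. The higher was CCND3, a G1 cyclin, at 659, 1415 and 917 CPM (1.10, 0.89 to 1.31). The lower was TACC3, a spindle protein (-1.08, -1.76 to -0.48). CTSB, a lysosomal protease read deeply, measured 3173, 1491 and 1665 CPM and was lower in footprints (-1.09, -1.25 to -0.93) and input (-1.21, -1.42 to -1.0). Of 14 measured glycolysis and hypoxia genes SLC16A3, a lactate exporter (1.28, 0.85 to 1.72), and ADM were called higher and none lower. That list had a median of 0.16, with intervals above 0 for 3 members and below 0 for 4. The 30 NRF2 and NADPH genes held no call, with a median of 0.27 that turned negative under total-count scaling.

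**Figure D3:**
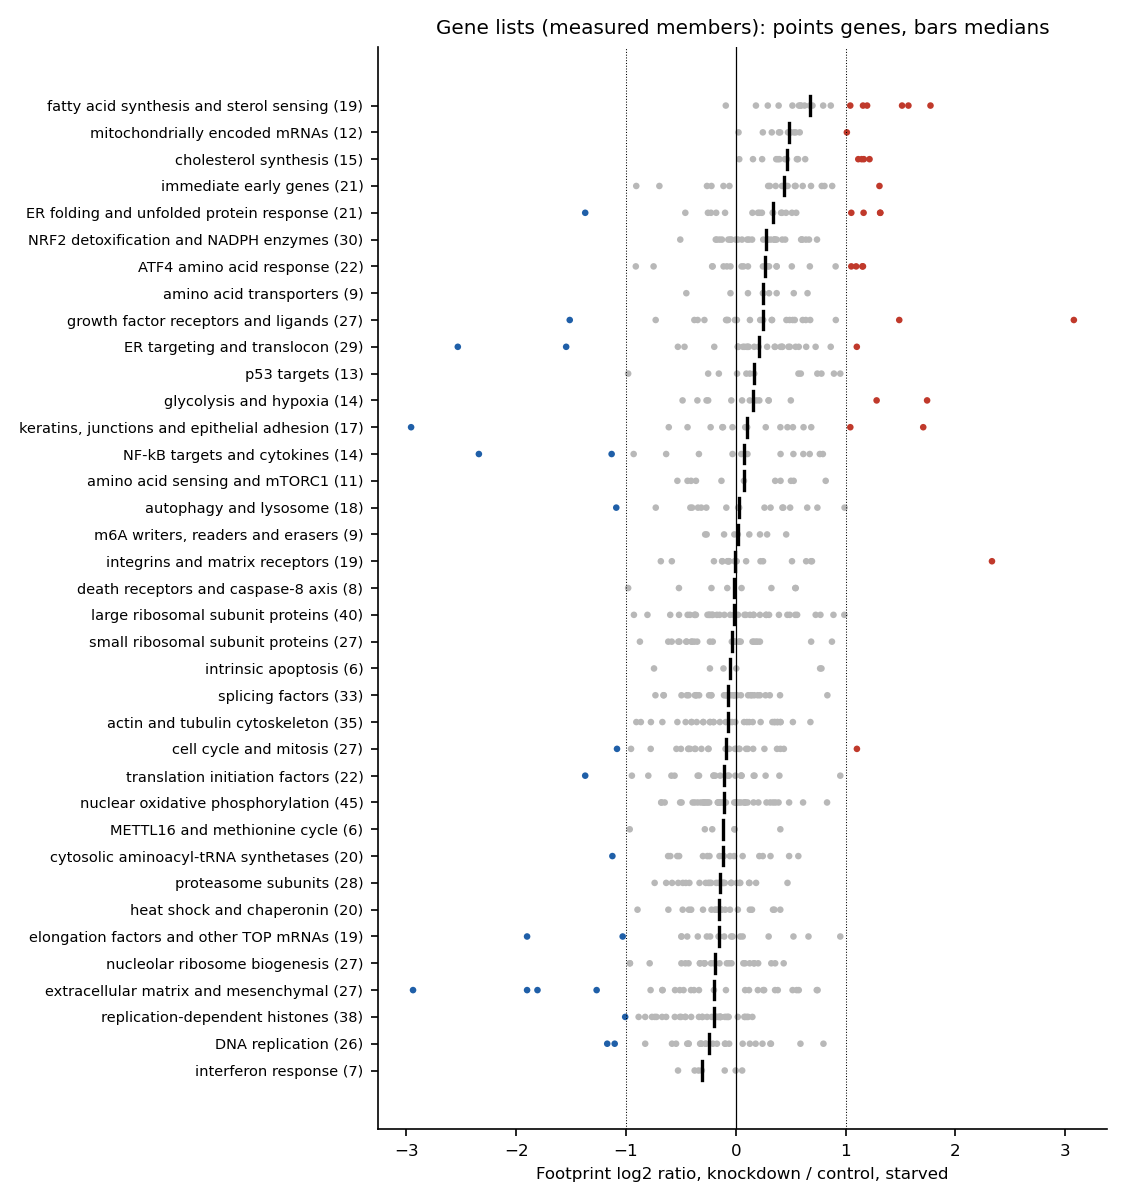
Footprint log2 ratio of every measured member (points) and the median (bar) of each gene list, with the number measured in parentheses. The sterol lists lie to the right of 0, with medians of 0.47 and 0.67, and the large ribosomal subunit list is centred at -0.01.

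Input RNA from the same conditions, which did not enter the choice of genes, was set beside the footprint calls. Of the 100 nuclear protein-coding genes called higher 87 reached the minimum in input, and their median ratio was 0.54 in input against 1.20 in footprints. The input ratio was above 0 for 71 of the 87, and 27 were called higher in input too, where 4.06% of 3772 genes were. Of the 97 called lower 68 reached the minimum, with medians of -0.46 in input and -1.18 in footprints. Input lay below 0 for 56 of the 68, and 15 were called lower there, where 4.8% of genes were. The input minimum averages 3 libraries, most of them from the METTL16 shRNA line, so genes with little RNA in that line drop out more readily. Among those left out were OLFML3 (-3.31 in input), CRIP2 (-3.11), NID2 (-2.85) and SLC16A6 (-2.78). RFC4 and DELE1, also left out, had input ratios above 0 with intervals holding 0. The difference between the footprint and input ratios had an interval on the side of the footprint call for 42 of the 87 and 26 of the 68, and an interval holding 0 for 44 and 41. The genes were chosen by their footprint ratio, which is part of this difference. A lean to the side of the call, and input medians nearer 0, are thus partly built in by the choice. Across all 2821 genes measured in both assays Pearson's r was 0.33 and Spearman's rho 0.27, as a description across genes, which are not independent replicates.

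For a few genes, picked out after their values were seen, input went against the footprints. SPTBN1, a spectrin, had 24 footprint reads in the control and 32 in the knockdown (1.36, 0.56 to 2.19), but 71 and 28 input reads (-1.01, -1.71 to -0.38). SAMD4B, an RNA-binding protein, was the other higher call with an input interval below 0 (1.06 in footprints, -0.86 in input). On the lower side HELLS had an input ratio of 1.33 (0.63 to 2.10), CHMP2B, an ESCRT subunit, 1.00 (0.27 to 1.77), UBE2N, a ubiquitin-conjugating enzyme, 0.76 (0.14 to 1.41), TSC22D1 0.58 (0.01 to 1.16) and BNIP2 0.53 (0.02 to 1.05). For these 5 the control held more footprints and fewer input CPM than the knockdown.

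**Figure D4:**
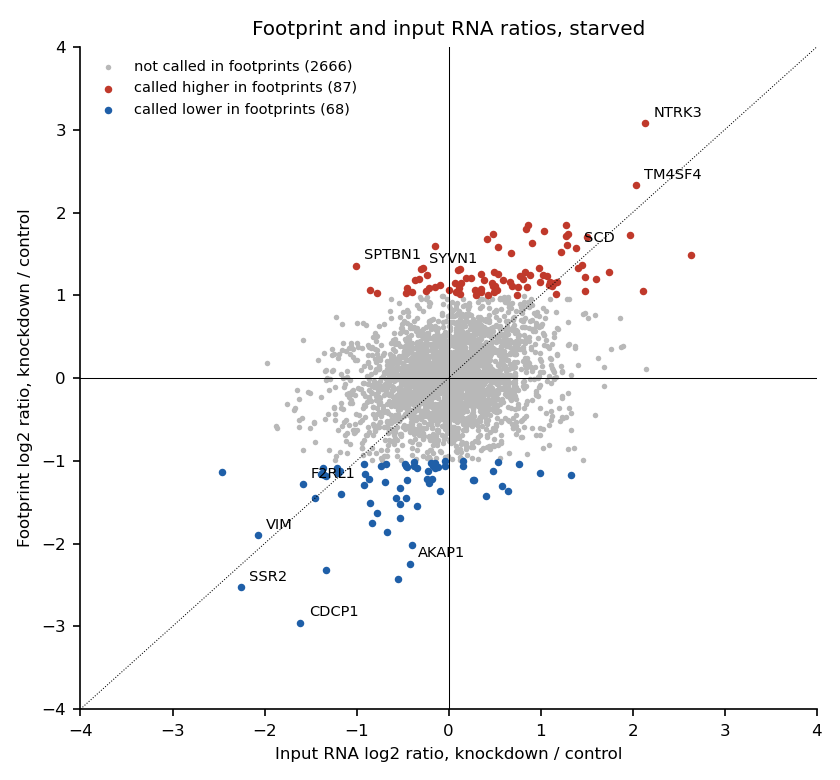
Footprint log2 ratio against input RNA log2 ratio for genes at the minimum in both assays, with a dotted line of equality. The 87 genes called higher in footprints lie mostly right of 0 and the 68 called lower mostly left, with medians of 0.54 and -0.46 on the input axis.

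The genes outside the nuclear protein-coding set had a median ratio of 0.87. Nuclear protein-coding genes held 79.0% of footprint reads in the control, 64.4% in the knockdown and 66.0% in the fed knockdown. Small nuclear RNA, the RNA of spliceosome particles, held 5.98%, 14.1% and 10.6%, and Y RNA, a small RNA bound by Ro protein, 9.08%, 14.6% and 11.6%. Such RNAs are not translated, and their part in the other ratios was not tested. Of 28 small nuclear RNA genes 24 were called higher and none lower. Of all 86 genes outside the nuclear protein-coding set, 45.3% were called higher and 2.33% lower. The small nuclear RNA median of 1.62 stays above 0 under every scaling. By kind, 15 of 17 U1 genes, both U4 genes, all 6 U5 genes, the 1 U6 gene and neither U2 gene were called. Copies of a kind can share reads, so these tallies are not counts of independent measurements. RNU5B-1 measured 1902, 10492 and 10326 CPM in the control, knockdown and fed knockdown (2.46, 2.36 to 2.57), with 2.25 in input, and RNU5A-1 1741, 9200 and 12774 CPM (2.40, 2.29 to 2.51). RNU4-2 was different, at 7051, 33496 and 10862 CPM (2.25, 2.19 to 2.30), so that it was highest in the knockdown. RNU1-136P (2.32) and RNU1-65P (2.15) are near-identical copies of U1 and share reads, so their values are uncertain.

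RNY5, which the count table types as a long noncoding RNA, was the one called of 9 Y RNA genes (1.28, 1.26 to 1.30), with 0.21 in input. The nuclear long noncoding RNAs NEAT1, a paraspeckle scaffold, and MALAT1 were both higher. NEAT1 measured 61.8, 326 and 587 CPM (2.39, 1.81 to 3.02) with 1.53 in input, and MALAT1 2031, 4564 and 4528 CPM (1.17, 1.05 to 1.29) with 1.28 in input. The 12 mitochondrially encoded mRNAs, translated by the organelle's own ribosomes, all had ratios above 0, with a median of 0.49 that stays above 0 under total-count scaling. Their median in input RNA was 0.39. MT-ND1, a subunit of complex I, was the one called, at 5703, 11495 and 16211 CPM (1.01, 0.94 to 1.08), and MT-ATP6, of the ATP synthase, was lowest at 0.02 (-0.10 to 0.15). The 2 lower calls were the mitochondrial pseudogenes MTATP6P2 (-1.27) and MTCO3P12 (-1.26), which share reads with the mitochondrial genes and are uncertain. C19orf48 (-0.91, -1.88 to -0.11) was the remaining gene not typed protein-coding with an interval below 0. RPL38P2 (-0.86, -1.91 to 0.01) and MTATP6P1 (0.13, -0.05 to 0.31) filled the lowest 5 by interval. Their intervals held 0, and all such genes tie in this ranking, so their places are arbitrary.

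**Figure D5:**
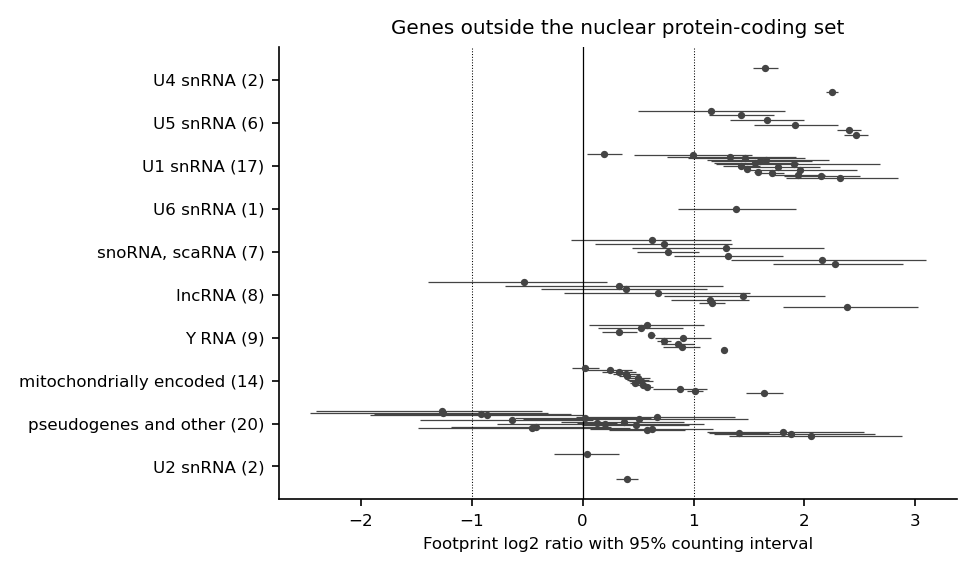
Footprint log2 ratio with its 95% counting interval for the genes outside the nuclear protein-coding set, grouped by kind, with dotted lines at 2-fold. The U4, U5 and U1 genes lie mainly beyond 2-fold, with medians of 1.95, 1.79 and 1.6, and the mitochondrially encoded genes lie between 0 and 2-fold for the most part.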

How the data were processed

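The authors deposited raw read counts per gene (unit: counts, with no normalization) and a gene length column for 6 libraries. Per the submitters' processing notes, build GRCh38 was used with STAR 2.7.5c, cutadapt 2.8, featureCounts 2.0.1 and Bowtie2 2.2.5, given without settings, so the handling of strand and of reads shared by copies is not given in the sources used here. A record broken over 3 lines was left out.

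Libraries were grouped by their titles, 1 per group. TMM factors (edgeR 4.0.16, R 4.3.3) were made over the 3 footprint libraries on nuclear protein-coding genes with a mean of at least 30 counts, and over the 3 input libraries likewise. Log2 ratios used a pseudocount of 0.5 and Clopper-Pearson intervals at 95%. The footprint minus input difference has a Poisson delta-method interval. With 1 library per group nothing estimates the spread, so there is no p-value. The procedure was tested on simulated data.

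Genes named are METTL16, MAT2A, 5 death receptors and CFLAR, the 15 highest and 15 lowest nuclear protein-coding genes by the interval end nearest 0 (histones left out), the 2 highest and 2 lowest of each of 40 lists, the 5 highest and 5 lowest that are not protein-coding, and genes nearest the minimum. Other genes, motifs and pairs are said to be chosen after their values were seen, or are the further called members of a list. A few genes that this rule or a list's calls would name are not reported here. Members and lists were chosen with earlier results of these data known. Protein features were planned. Protein sequences were not used here, and gene-model length and RefSeq promoters took their place. RefSeq coordinates matched 3403 of the 3431 genes, and RefSeq promoters 2779 of the 3345 nuclear protein-coding genes. Alternatives were other scalings (DESeq2 1.42.0 size factors among them), count minimums of 10 and 100, a pseudocount of 1, other call rules and the fed knockdown input.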

Additional observations from a re-analysis of the deposited data

How the results depend on the processing

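With 139 genes called higher and 99 lower, scaling by total counts gave 57 and 323, a minimum of 10 counts 414 and 343 of 6945 genes, and a minimum of 100 counts 45 and 12 of 1023. Requiring the interval end nearest 0 to be 2-fold gave 46 and 13, and a 1.5-fold rule 395 and 306. TMM over all genes and median of ratios each gave 136 and 104, the sum of nuclear protein-coding counts 119 and 131, and protein-coding genes alone 101 and 97. The input medians of called genes, 0.54 for those higher and -0.46 for those lower, became 0.43 and -0.56 with total counts. With the fed knockdown input in place of the starved one they were 0.95 and -0.45. That change alters the medium as well, so it is not a change of processing alone. The extreme chromosome medians were -0.16 and 0.14 with a minimum of 10. Of 231 named genes 42 moved beyond their counting interval with total counts. Of 37 list medians 11 moved with total counts and 1 with a minimum of 100, autophagy and lysosome, and none with the other scalings. No paired analysis was possible because each group holds 1 library, and for the same reason no library could be left out. Depth limits the shallow genes: the median interval width was 1.52 log2 units over the 841 genes with fewest reads.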
